A study of Mus musculus with 23 samples.

Results

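Antigen presentation through MHC class I and class II was followed in PyMT mammary tumors as a set of 32 genes, all of which were found among the 47643 gene identifiers of the deposited tables by matching mouse gene symbols. The genes were taken by their known function. A class I side of 20 genes holds 9 genes of class I molecules, 5 of peptide loading, 5 of the immunoproteasome and the transactivator Nlrc5, and a class II side of 12 genes holds the transactivator Ciita, 4 genes of class II molecules with the invariant chain counted among them, 5 of peptide exchange and 2 of endosomal processing. The tumors arose in female mice that carry the polyoma middle T oncogene (PyMT) in the mammary epithelium, on a C57BL/6 background. In the neutralization experiment, mice received 100 µg per week of the IL-38 neutralizing antibody anti-IL-38 (6 tumors) or of a human IgG1 isotype control (5 tumors) over 5 weeks, counted from a first tumor size of 0.6 cm. In the other experiment, antibody was given to all mice weekly over 5 weeks that began at week 13, with 500 µg as the opening dose and 200 µg at each later injection. These were 4 tumors of wild-type mice with Armenian hamster IgG (WT + IgG), 4 of IL-38 knockout mice with the same IgG (IL-38 KO + IgG) and 4 of IL-38 knockout mice with an antibody against the γδ T cell receptor (IL-38 KO + anti-γδTCR), a clone that blocks signaling through the receptor and need not remove the cells. The knockout strain was of C57BL/6N origin and crossed to PyMT. RNA of whole tumors, dissociated before RNA isolation, was sequenced, so that fewer cells of a type and less RNA per cell cannot be told apart. Il1f10, the gene of IL-38, had 0 reads in all 23 libraries and could not check the genotype labels.

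MHC class I molecules carry peptides from the cytosol to the surface of nearly every nucleated cell. The peptides are cut by the proteasome, whose catalytic subunits are exchanged for those of the immunoproteasome under interferon-γ, pumped into the endoplasmic reticulum by the Tap1-Tap2 transporter, trimmed by Erap1 and placed on a heavy chain bound to β2-microglobulin (B2m) with the help of tapasin (Tapbp). MHC class II molecules are mostly made by dendritic cells, macrophages and B cells, where the invariant chain Cd74 guides them to endosomes, cathepsin S (Ctss) and the thiol reductase Ifi30 prepare the compartment and the antigen, and H2-DM exchanges the placeholder peptide. Nlrc5 acts as the transactivator of class I genes and Ciita as that of class II genes, and both act through the same promoter elements, among them an inverted CCAAT box known as the Y box.

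The promoters of the members share some of these letters. RefSeq promoter windows on GRCm38.p6, of 250 bases before to 50 bases after a start, were at hand for 26 of the 32 genes; the submitters' notes list GRCm39 as the build of the counts. Ciita, Cd74, H2-Ab1, Nlrc5, Tap2 and Tapbpl were not among them. The Y box core CTGATTGG was searched on both strands and was found in 7 of 17 class I side genes (H2-D1, H2-K1, H2-Q6, H2-Q7, H2-T23, Psmb9 and Tap1) and in 3 of 9 class II side genes (H2-Aa, H2-Eb1 and H2-Oa), against 4.10% of all 32851 windows. The letters GAAANNGAA, the core of an interferon-stimulated response element, were in 5 class I side genes (B2m, Erap1, H2-T22, H2-T23 and Psme1) and in Ctss, against 8.56% of all windows. TTCNNNGAA, the element bound by STAT dimers, was in Psmb8, H2-M3 and H2-DMb2, against 8.30% of all windows. A match is a description of letters and not of a bound site, and near-identical class I genes are not independent of each other. The windows of Tap1 and Psmb9 overlap by 275 bases and hold 1 and the same Y box match. Members were counted by gene, 3 of them over more than 1 window, while the shares are of windows. The bases before the start are shown for genes on which the later results turn, 5′ to 3′ on the strand of the gene, with matches in capitals: a classical and a non-classical class I gene, a pair of class II genes, H2-DMa and Ctss, which separated from the class II molecules in the data, and the immunoproteasome gene Psmb8.
H2-D1, chr17:35262944-35263093 (plus strand): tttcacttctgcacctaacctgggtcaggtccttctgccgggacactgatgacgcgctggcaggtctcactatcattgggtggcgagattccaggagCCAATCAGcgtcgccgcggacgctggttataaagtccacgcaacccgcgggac
H2-Q6, chr17:35424700-35424849 (plus strand): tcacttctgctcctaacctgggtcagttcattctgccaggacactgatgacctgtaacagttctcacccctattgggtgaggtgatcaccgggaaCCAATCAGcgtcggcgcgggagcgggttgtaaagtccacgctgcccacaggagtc
H2-Aa, chr17:34287824-34287973 (minus strand): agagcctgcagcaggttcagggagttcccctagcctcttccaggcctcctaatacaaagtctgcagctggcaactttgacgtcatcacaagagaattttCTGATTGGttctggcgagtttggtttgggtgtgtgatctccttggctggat
H2-Eb1, chr17:34305717-34305866 (plus strand): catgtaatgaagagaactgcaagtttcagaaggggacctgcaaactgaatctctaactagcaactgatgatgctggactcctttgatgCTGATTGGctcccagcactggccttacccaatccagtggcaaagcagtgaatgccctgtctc
H2-DMa, chr17:34122682-34122831 (plus strand): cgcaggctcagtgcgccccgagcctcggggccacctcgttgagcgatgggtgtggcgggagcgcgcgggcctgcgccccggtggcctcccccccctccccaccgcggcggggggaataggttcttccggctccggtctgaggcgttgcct
Ctss, chr3:95526636-95526785 (plus strand): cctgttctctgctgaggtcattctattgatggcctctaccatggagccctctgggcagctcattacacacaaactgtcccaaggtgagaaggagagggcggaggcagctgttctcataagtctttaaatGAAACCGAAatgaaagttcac
Psmb8, chr17:34198045-34198194 (plus strand): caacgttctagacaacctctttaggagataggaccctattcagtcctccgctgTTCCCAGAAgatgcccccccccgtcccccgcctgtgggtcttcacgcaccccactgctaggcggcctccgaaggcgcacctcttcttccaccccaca
H2-D1 and H2-Q6 held the Y box core as its reverse complement, beginning 53 bases before the start in H2-D1 and 55 in H2-Q6. H2-Aa and H2-Eb1 held it in the forward direction, 51 bases before the start in H2-Aa and 62 in H2-Eb1. H2-DMa had none of the searched letters in either of its windows, chr17:34122582-34122881 and chr17:34125268-34125567. These belong to different starts, and the bases shown are from the first. Ctss had the interferon response letters 21 bases before its start, and Psmb8 had the STAT letters 97 bases before its start.

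Tap1, which encodes part of the peptide transporter, and Psmb9, an immunoproteasome subunit, lie head to head on chromosome 17, and the 225 bases between their starts are their common promoter. They are shown on the strand of Tap1.
Tap1 and Psmb9, chr17:34187331-34187555 (plus strand): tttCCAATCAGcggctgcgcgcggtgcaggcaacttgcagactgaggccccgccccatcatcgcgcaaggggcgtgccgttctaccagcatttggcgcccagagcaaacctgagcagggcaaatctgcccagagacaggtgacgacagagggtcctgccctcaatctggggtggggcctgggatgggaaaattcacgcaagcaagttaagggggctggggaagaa
The Y box core lay at the Psmb9 end of this stretch, 11 bases before the start of Psmb9 and 222 before that of Tap1.

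The libraries were made by 3′ mRNA sequencing, in which a read marks the end of a transcript, so levels are compared between tumors and not between genes. Of the 23 libraries, 5 stood apart: all 4 of IL-38 KO + anti-γδTCR and IL-38 KO + IgG replicate 4. They had 6273049 to 8794202 reads on genes against 10138353 to 15879164 in the other 18, 1.31% to 1.98% of reads on processed pseudogenes against 0.0943% to 0.191%, and 11.3% to 20.1% on the transcript Gm42418 against 2.62% to 5.70%. The label of IL-38 KO + IgG replicate 4 could not be checked from the files, and its values enter every knockout and blockade fold change below unless it is left out. The effect of γδ TCR blockade and of this difference between libraries cannot be told apart in the 4 treated tumors, and results on blockade are therefore given with and without replicate 4 of the controls. Summed mammary epithelial markers (8 genes) reached 2969.5 to 3801 and 1640.2 to 4342 CPM (reads scaled to the library size) in the 5 and the other 18 libraries, so the labelled tissue was present in both, while B cell markers (8 genes) summed to 5.48 to 9.15 and 0.599 to 5.23.

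On IL-38 neutralization, most class I side genes lay higher than in the isotype controls, and none passed the adjusted threshold. Of the 20 genes, 18 had a positive log2 fold change, with a median of 0.56 against 0.0019 over all 16002 genes tested, of which 50.2% were higher. All 9 class I molecules and all 5 loading genes were on the positive side, with medians of 0.60 and 0.46, and the 5 immunoproteasome genes had a median of 0.22. On the class II side, 8 of 12 were higher, with a median of 0.22, or 0.14 without isotype control replicate 5. After adjustment over all genes, 0 of 32 members passed 0.05 in limma, and 0% of all genes tested did. At an unadjusted p under 0.05, 7 class I side genes (H2-Q6, Tapbpl, Tap2, Psmb8, H2-T22, H2-Q4 and H2-D1) and 1 class II side gene (H2-Oa) were higher and 0 members were lower, against 5.61% and 4.91% of all genes in these directions. With single libraries left out, the number of class I side genes at this level lay between 6 (anti-IL-38 replicate 2 out) and 11 (anti-IL-38 replicate 4 out). DESeq2 on the recovered reads called 2 members, H2-Q6 and Tapbpl, and 0.469% of all genes, and edgeR called 0.

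Among the classical class I heavy chains, H2-K1 (ENSMUSG00000061232) had 24919.5, 21533, 32984, 20846 and 10642 normalized counts in the 5 isotype control tumors and 20642 to 44785 with a median of 32490.3 in the 6 anti-IL-38 tumors. The groups overlapped, and isotype control replicate 5 was the lowest of all 11 tumors. The log2 fold change, taken as everywhere below on normalized counts with 1 added, was 0.57 (SE 0.28, adjusted p = 0.484). B2m (ENSMUSG00000060802), the light chain shared by all class I molecules, had 63742, 51511, 53124, 55821 and 44728 in controls and 42542 to 101284 with a median of 69342 on neutralization, a log2 fold change of 0.31 (SE 0.22, adjusted p = 0.615). The 2 highest and the lowest B2m values all belonged to anti-IL-38 tumors. H2-Q6, a non-classical Qa-2 family gene, had 8.5, 12.9, 19.6, 23 and 2.86 normalized counts in controls and 17.7 to 166 with a median of 84.5 with anti-IL-38. All anti-IL-38 tumors but replicate 6 lay above every control, and the log2 fold change was 2.55 (SE 0.60, adjusted p = 0.350), with an adjusted p of 0.00227 in DESeq2. The last 500 bases of H2-Q6 transcripts share 32.2% of their stretches of 75 bases with other transcripts, chiefly H2-Q7, so its reads may be split between the copies. H2-Q7 itself was higher by 0.85 (adjusted p = 0.505).

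Of the peptide loading genes, Tap2 and Tapbpl differed most. Tap2 (ENSMUSG00000024339), which forms the peptide transporter with Tap1, had 270.0, 20.2, 382, 178 and 132 normalized counts in controls and 178 to 3033 with a median of 640.2 on neutralization. Anti-IL-38 replicate 2 had the highest value, isotype control replicate 2 had the lowest, and anti-IL-38 replicate 4 lay among the controls. The log2 fold change was 2.30 (SE 0.73, adjusted p = 0.412), while that of its partner Tap1 was 0.18 (adjusted p = 0.792). Tapbpl (ENSMUSG00000038213), the tapasin-related peptide editor, had 125, 148, 306, 239 and 181 in controls and 305 to 706 with a median of 412 with anti-IL-38, with only isotype control replicate 3 inside the range of the treated tumors. Its log2 fold change was 1.15 (SE 0.27, adjusted p = 0.359), with an adjusted p of 0.0258 in DESeq2. The transactivator Nlrc5 (ENSMUSG00000074151) had 198, 187, 112, 197 and 120.1 in controls, 100.1 to 184 with a median of 148 with anti-IL-38 and a log2 fold change of −0.13 (SE 0.22, adjusted p = 0.845). The other 12 class I side genes had log2 fold changes of −0.040 to 1.40 and adjusted p-values of 0.420 to 0.924.

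The class II molecules lay closer together between the groups. H2-Ab1 (ENSMUSG00000073421), the β chain of I-A, had 6069, 9449.5, 7003, 6695 and 3485 normalized counts in controls and 4509 to 10582 with a median of 9189 on neutralization, a log2 fold change of 0.36 (SE 0.26, adjusted p = 0.624). Cd74 (ENSMUSG00000024610) had 8162, 12644, 7991, 9039 and 5785 in controls and 5887 to 12293 with a median of 10584 with anti-IL-38, a log2 fold change of 0.17 (SE 0.22, adjusted p = 0.786), and isotype control replicate 2 held the highest value of both groups. Ciita (ENSMUSG00000022504) had 62.3, 81.8, 44.5, 50.7 and 52.4 in controls and 37.8 to 97.5 with a median of 72.0 with anti-IL-38, a log2 fold change of 0.19 (SE 0.28, adjusted p = 0.819). H2-Oa and H2-Ob, the chains of the inhibitor of H2-DM, were at 0 to 17.7 and 0.953 to 29.5 normalized counts over both groups, with log2 fold changes of 1.39 (SE 0.64, adjusted p = 0.475) and 1.07 (SE 0.62, adjusted p = 0.536). Ctss had 56610.3, 49286, 39782, 38995 and 50519 in controls and 31101 to 43800.2 with a median of 37708 with anti-IL-38, a log2 fold change of −0.32 (SE 0.16, adjusted p = 0.482). It was among the members with a negative sign, together with Ifi30 (−0.15), H2-DMa (−0.18) and H2-DMb2 (−0.11). The other 3 class II side genes had log2 fold changes of 0.25 to 0.50 and adjusted p-values of 0.552 to 0.660.

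Cell type markers are given beside these values. Of 8 mammary epithelial markers, 8 were higher on neutralization, with a median log2 fold change of 0.66 and a summed level of 1640.2 to 3449.7 CPM in controls and 2401 to 4342 with anti-IL-38. All 6 pan-leukocyte markers were on the negative side (median −0.18, summed level 1491 to 1937 against 1305 to 1731), and 0 of the markers of either list passed the adjusted threshold. Macrophage and dendritic cell sums were 2459.6 to 3325 and 308 to 471 in controls against 2060.0 to 2823 and 241 to 344 with anti-IL-38, and all 5 fibroblast markers were higher (median 0.63, summed level 948 to 3163 against 1317 to 3689). T cell markers were higher in 7 of 8 cases (median 0.77, summed level 8.04 to 20.8 against 7.79 to 16.8), and of 17 interferon-stimulated genes outside antigen presentation 13 were higher (median 0.23), 0 of them at an unadjusted p under 0.05. The part of these differences in the class I and class II values was not tested.

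**Figure D1:**
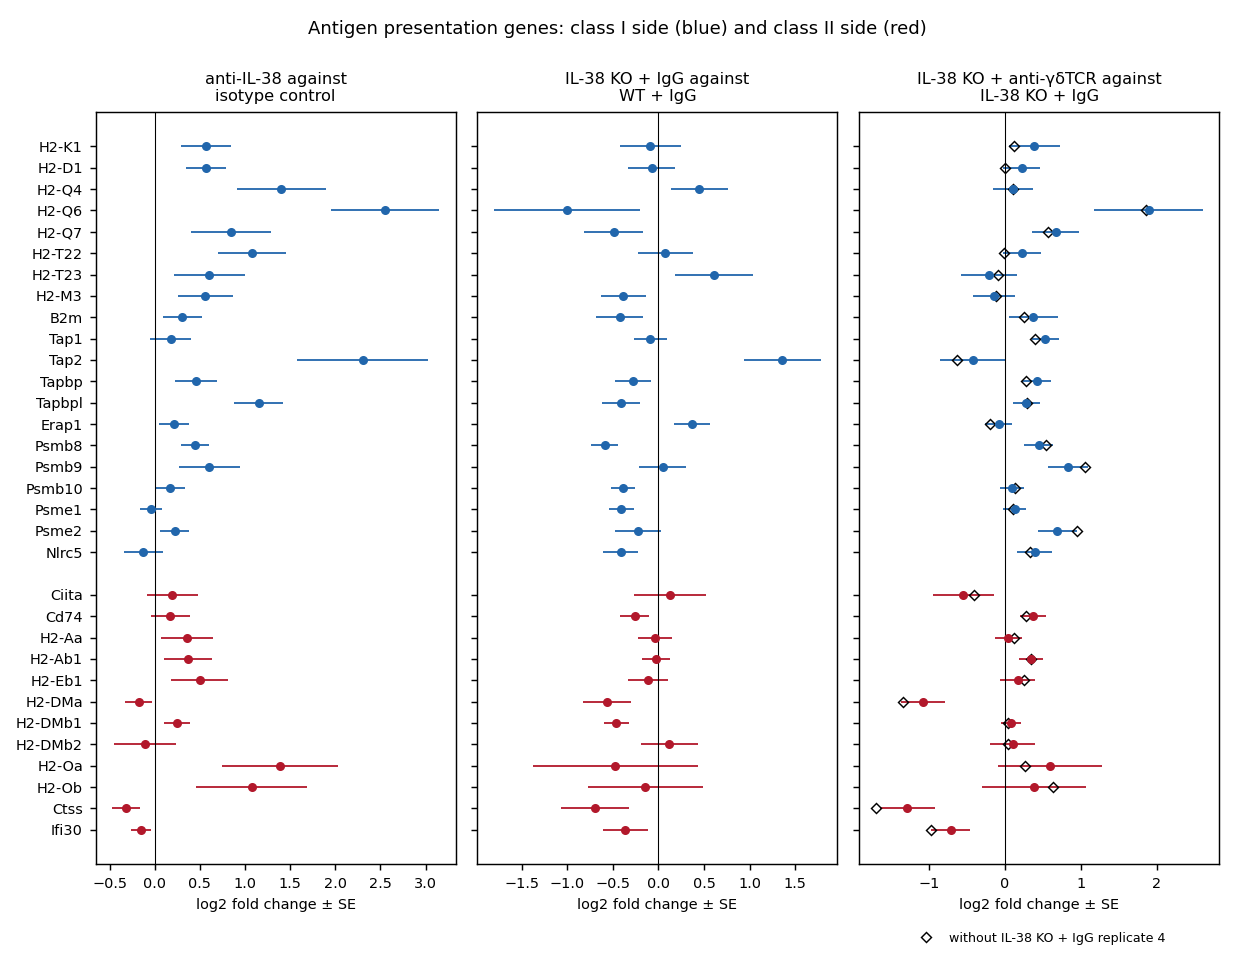
Log2 fold change with its standard error (x axes) of the 32 antigen presentation genes (rows) in the 3 comparisons (panels), with the class I side in blue and the class II side in red; open diamonds give the values without IL-38 KO + IgG replicate 4. On neutralization, 18 of 20 class I side genes lie right of 0, and on γδ TCR blockade H2-DMa, Ctss and Ifi30 lie left of the class II molecules.

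In IL-38 KO tumors compared with WT tumors, most genes of both sides lay on the lower side, and the immunoproteasome genes Psmb8 and Psmb10 separated the groups. Of the 20 class I side genes, 14 had a negative log2 fold change, with a median of −0.25, and of the 12 class II side genes 10 did, with a median of −0.20; the median of all 16563 genes was 0.0053. The class II side median was −0.41 without IL-38 KO + IgG replicate 3, −0.10 without replicate 1 and −0.13 without replicate 4 of that group. Of the 5 immunoproteasome genes, 4 were lower, with a median of −0.39, and the 4 class II molecules had a median of −0.080. After adjustment 0 of 32 members passed in limma, beside 0.00604% of all genes. At an unadjusted p under 0.05, Tap2 was higher, and Psmb8, Psme1, Psmb10 and H2-DMb1 were lower, against 6.73% and 5.4% of all genes. Leaving out single libraries gave 1 to 5 class II side genes lower at this level, the most without IL-38 KO + IgG replicate 3. On the class I side it gave 3 to 6, the most without WT + IgG replicate 2. In the fits with the most, 1182 of 16578 and 564 of 16597 genes were lower at this level. Psmb8, Psmb10 and H2-DMb1 were lower in every IL-38 KO tumor than in any WT tumor, a separation in this direction found for 3.41% of all genes tested. DESeq2 called Psmb8 and Tap2 and 1.84% of all genes, and edgeR called 0 members.

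Psmb8 (ENSMUSG00000024338), the immunoproteasome subunit β5i, had 2068, 1966, 2569 and 2176 normalized counts in WT tumors and 1218, 1526, 1356 and 1747 in IL-38 KO tumors. The highest IL-38 KO value belonged to replicate 4, and the log2 fold change was −0.59 (SE 0.15, adjusted p = 0.210), or −0.68 without that tumor (adjusted p = 0.0929). DESeq2 gave an adjusted p of 0.0282. Psme1 (ENSMUSG00000022216), the α subunit of the PA28 proteasome activator, had 2734, 2832, 2843 and 2318 in WT and 1883, 1928, 2419 and 1871 in IL-38 KO tumors, with IL-38 KO replicate 3 above the lowest WT tumor and a log2 fold change of −0.41 (SE 0.14, adjusted p = 0.306). Psmb10, the subunit β2i, had 1011, 832, 1096 and 991 in WT and 769.9, 662, 772 and 783 in IL-38 KO tumors, a log2 fold change of −0.39 (SE 0.13, adjusted p = 0.310). By contrast, Psmb9, which completes the catalytic set, had a log2 fold change of 0.046 (adjusted p = 0.954).

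Tap2 was the class I side gene with the largest positive value, at 389, 116, 517 and 398 normalized counts in WT and 973, 671, 1235 and 508 in IL-38 KO tumors. Replicate 4 of the IL-38 KO tumors lay just below the highest WT tumor and the others above all WT tumors. The log2 fold change was 1.36 (SE 0.42, adjusted p = 0.283), with an adjusted p of 0.0451 in DESeq2. H2-K1 had 30484, 23803, 53789 and 42168 in WT and 48532, 38452, 36668 and 18646 in IL-38 KO tumors, a log2 fold change of −0.092 (SE 0.33, adjusted p = 0.928). Its sign turned without WT + IgG replicate 3, the highest of the 8 tumors, and without IL-38 KO replicate 4 (0.19), the lowest. B2m had 78548, 67995, 94881 and 66341 in WT and 51322, 65158, 73420.4 and 42271 in IL-38 KO tumors, a log2 fold change of −0.42 (SE 0.26, adjusted p = 0.512), and Nlrc5 had 202, 160.2, 266 and 245 in WT and 155, 183, 171 and 137 in IL-38 KO tumors, a log2 fold change of −0.41 (SE 0.19, adjusted p = 0.418). The other 12 class I side genes had log2 fold changes of −1.0 to 0.61 and adjusted p-values of 0.448 to 0.932.

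On the class II side, the I-A chain H2-Ab1 was close between the genotypes. H2-Ab1 had 6437, 6287, 7240.0 and 7825 normalized counts in WT and 5765, 6593, 8433 and 6612 in IL-38 KO tumors, a log2 fold change of −0.028 (SE 0.16, adjusted p = 0.953), and the WT range lay within that of IL-38 KO. Cd74 had 8935, 9513, 9357 and 8652 in WT and 7016, 8243, 9338 and 6205 in IL-38 KO tumors, a log2 fold change of −0.26 (SE 0.16, adjusted p = 0.519). Ciita had 82.7, 137, 56.4 and 71.3 in WT and 41.2, 87.3, 153 and 117 in IL-38 KO tumors, a log2 fold change of 0.13 (SE 0.39, adjusted p = 0.914). H2-DMb1 (ENSMUSG00000079547), a β chain of the peptide exchange factor H2-DM, had 1049.7, 1111, 985 and 865 in WT and 737, 689.6, 829.9 and 653 in IL-38 KO tumors, a log2 fold change of −0.46 (SE 0.14, adjusted p = 0.260). Of its last 500 bases, 15.7% of the stretches of 75 bases are shared with the neighbouring copy H2-DMb2, which had a log2 fold change of 0.12. H2-DMa had 707, 934, 673 and 588 in WT and 466, 618, 690.2 and 274 in IL-38 KO tumors, a log2 fold change of −0.57 (SE 0.27, adjusted p = 0.418), and Ctss had 30874, 40123, 30862 and 25057 in WT and 23204, 23512, 31898 and 7909.9 in IL-38 KO tumors, a log2 fold change of −0.70 (SE 0.37, adjusted p = 0.467). For both, IL-38 KO replicate 4 was far below all other tumors, and without it the log2 fold changes were −0.29 and −0.27. The other 5 class II side genes had log2 fold changes of −0.47 to −0.040 and adjusted p-values of 0.559 to 0.946.

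Interferon-stimulated genes and leukocyte markers lay on the lower side as well. All 17 genes of a list of interferon-stimulated genes outside antigen presentation were lower in IL-38 KO tumors, with a median of −0.56, and 12 of them had an unadjusted p under 0.05; after adjustment 0 passed in limma. Irf7, a transcription factor of this response, had a log2 fold change of −0.59 (adjusted p = 0.210) and the GTPase Gbp2 one of −0.67 (adjusted p = 0.210). All 9 macrophage markers (median −0.49) and all 6 pan-leukocyte markers (median −0.68) were lower too. Their sums were 1943 to 2541 against 871 to 2154 and 1126 to 1594 against 424 to 1208 CPM, with the lowest IL-38 KO value in replicate 4. Adipocyte markers were lower (median −1.11) and skeletal muscle markers higher (median 2.57), and the part of these in the members' values was not tested.

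**Figure D2:**
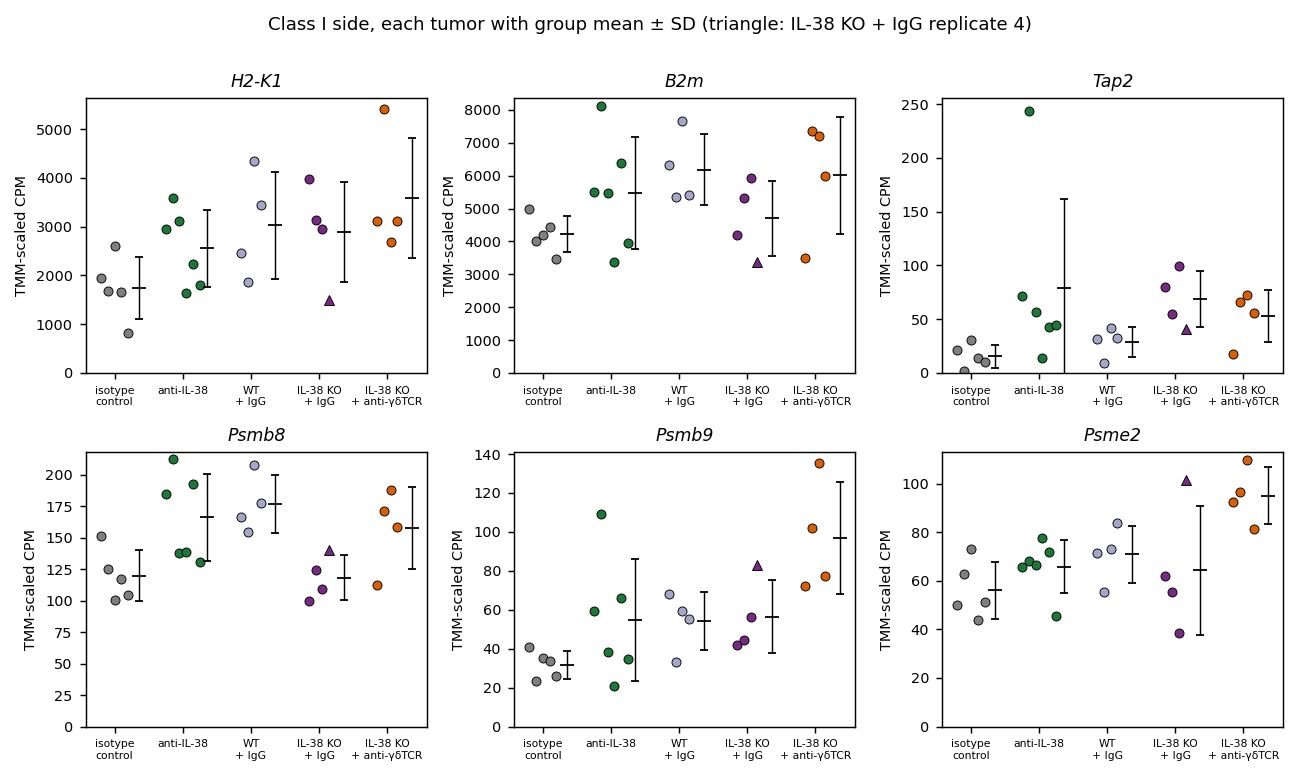
TMM-scaled CPM (y axes, from 0) of 6 class I side genes in each of the 23 tumors by group (x axes), with the group mean and SD at the right of each group; the triangle is IL-38 KO + IgG replicate 4, and the SD bar of Tap2 with anti-IL-38 reaches below the axis. Psmb8 is higher in all 4 WT tumors than in all 4 IL-38 KO tumors, and Psmb9 and Psme2 of the triangle lie within the range of the blockade tumors.

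Antibody and knockout were then set against each other over the 19 tumors of both experiments through an interaction term, in which a positive value means a higher log2 fold change by antibody than by knockout. Of the class I side, 18 of 20 genes had a positive value (median 0.69), and of the class II side 11 of 12 (median 0.39), beside a median of 0.021 over all genes. None of the 32 members passed after adjustment in limma, and 0.00612% of all genes did. At an unadjusted p under 0.05, 8 class I side genes and H2-DMb1 were positive, against 4.24% of all genes. Psmb8 had the smallest p, a log2 fold change of 1.04 (SE 0.22, adjusted p = 0.404): it was higher on neutralization by 0.45 and lower in the knockout by 0.59. DESeq2 called Psmb8 (adjusted p = 0.0256) and Tapbpl (adjusted p = 0.0492), among 0.135% of all genes. For Tapbpl the difference was 1.56 (SE 0.38, adjusted p = 0.491), for H2-Q6 it was 3.56 (SE 1.07, adjusted p = 0.534) and for H2-DMb1 it was 0.71 (SE 0.21, adjusted p = 0.525). H2-K1 (0.66, adjusted p = 0.769), B2m (0.73, 0.650), Nlrc5 (0.29, 0.832), H2-Ab1 (0.39, 0.802), Cd74 (0.43, 0.764) and Ciita (0.068, 0.983) were also positive. All 17 interferon-stimulated genes were positive (median 0.72).

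With both ways of inhibiting IL-38 pooled, 10 tumors were compared with 9 controls. Of the class I side, 16 of 20 genes were higher (median 0.25), and of the class II side 6 of 12 (median 0.070). The class I side median was 0.17 without isotype control replicate 5, and the class II side median, which was close to 0, moved by over 1.5 times when any 1 of 9 libraries was left out, between 0.010 without IL-38 KO + IgG replicate 3 and 0.13 without IL-38 KO + IgG replicate 1. With the experiment as a term, the medians were 0.28 and 0.078, and 0 members and 1 of all genes were called. None of the 32 members passed after adjustment in limma, and 0% of all genes did; edgeR and DESeq2 called 0 members too. At an unadjusted p under 0.05, Tap2 and H2-Q4 were higher and 0 members were lower, against 6.42% and 4.13% of all genes. Leaving out single libraries gave 2 to 6 class I side genes higher at this level, the most without anti-IL-38 replicate 4. In that fit, 1099 of 16371 genes were higher at this level. Tap2 was the only member with a log2 fold change above 1 in each experiment alone, and pooled it had 1.88 (SE 0.51, adjusted p = 0.251), or 1.91 (adjusted p = 0.143) with the experiment as a term. H2-Q4, a non-classical class I gene, had 0.97 (SE 0.37, adjusted p = 0.381), and H2-T23, which encodes the Qa-1 ligand of NKG2A receptors, had 0.60 (SE 0.29, adjusted p = 0.474). H2-K1 had 0.27 (SE 0.25, adjusted p = 0.722), B2m −0.0091 (SE 0.19, adjusted p = 0.990) and Nlrc5 −0.26 (SE 0.16, adjusted p = 0.555). On the class II side, H2-Ab1 had 0.20 (SE 0.17, adjusted p = 0.696), Cd74 −0.0048 (SE 0.15, adjusted p = 0.994) and Ciita 0.14 (SE 0.26, adjusted p = 0.864), while Ctss had −0.45 (SE 0.26, adjusted p = 0.531), H2-DMa −0.31 (SE 0.21, adjusted p = 0.589) and Ifi30 −0.22 (SE 0.18, adjusted p = 0.680).

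On γδ TCR blockade in IL-38 KO tumors, the class II side split in 2. The genes of the class II molecules were at or slightly above the level of the IL-38 KO + IgG tumors, while H2-DMa, Ctss and Ifi30 were lower, and genes of the immunoproteasome were higher. Of the 20 class I side genes, 16 were higher, with a median of 0.33, and the 5 immunoproteasome genes were all higher, with a median of 0.44. The class I side median was 0.18 without IL-38 KO + IgG replicate 4 and 0.20 without IL-38 KO + anti-γδTCR replicate 2. Of the 12 class II side genes, 8 were higher, with a median of 0.089 that ranged from −0.017 without IL-38 KO + IgG replicate 1 to 0.16 without IL-38 KO + IgG replicate 3; it was 0.045 without IL-38 KO + IgG replicate 2 and 0.042 without IL-38 KO + anti-γδTCR replicate 3. The 4 class II molecules had a median of 0.26 and the 2 endosomal genes one of −1.0; the median of all 16481 genes was 0.022. With all libraries, 0 of 32 members passed the adjusted threshold in limma, and 0% of all genes did. At an unadjusted p under 0.05, 6 class I side genes were higher (Psmb9, Tap1, Psme2, H2-Q6, Psmb8 and Tapbp) and 3 class II side genes were lower (H2-DMa, Ctss and Ifi30), against 12.7% and 9% of all genes. The 6 became 2 without IL-38 KO + anti-γδTCR replicate 3 and 7 without IL-38 KO + anti-γδTCR replicate 1. DESeq2 called H2-DMa and Ctss and 6.29% of all genes, and edgeR called 0 members.

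Ctss (ENSMUSG00000038642) had 17420.0, 17824, 24640.2 and 6194 normalized counts in the 4 IL-38 KO + IgG tumors and 6499.7, 5374, 6788 and 5623 in the 4 tumors with blockade, on the scale of the table that holds these 8 libraries. Replicate 4 of the controls lay among the treated tumors, and the other 3 controls lay far above. The log2 fold change was −1.29 (SE 0.36, adjusted p = 0.0764), and DESeq2 gave an adjusted p of 0.00132. H2-DMa (ENSMUSG00000037649) had 349.7, 468, 533 and 214 in controls and 150.4, 148, 242 and 171 on blockade, a log2 fold change of −1.08 (SE 0.28, adjusted p = 0.0666) and an adjusted p of 0.00779 in DESeq2. Ifi30 (ENSMUSG00000031838) had 1704, 1762, 2537 and 972 in controls and 1033, 808, 1228 and 983 on blockade, a log2 fold change of −0.72 (SE 0.26, adjusted p = 0.138). For both, replicate 4 again lay within the range of the treated tumors. Without it, limma called all 3 genes lower, with −1.71 (adjusted p = 8.14e-05) for Ctss, −1.34 (0.00166) for H2-DMa and −0.97 (0.00461) for Ifi30. In this setting 4.85% of all genes were called lower and 9.45% higher, so calls were frequent throughout.

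H2-Ab1 had 4328, 4998, 6514 and 5178 normalized counts in controls and 6419, 6534, 6245 and 7230.1 on blockade, a log2 fold change of 0.34 (SE 0.16, adjusted p = 0.244), and only control replicate 3 lay within the range of the treated tumors, the other 3 below it. Cd74 had 5267, 6249, 7213 and 4859 in controls and 6696, 7992, 7655 and 7818 on blockade, a log2 fold change of 0.37 (SE 0.17, adjusted p = 0.234). H2-Aa and H2-Eb1 had log2 fold changes of 0.045 and 0.17, and without replicate 4 the 4 genes had 0.34, 0.28, 0.12 and 0.25, with adjusted p-values of at least 0.240. Ciita had 30.9, 66.2, 118 and 91.7 in controls and 45.8, 41.2, 66.9 and 37.4 on blockade, a log2 fold change of −0.55 (SE 0.40, adjusted p = 0.474). The remaining class II side genes, H2-DMb1, H2-DMb2, H2-Oa and H2-Ob, had log2 fold changes of 0.080, 0.10, 0.60 and 0.38 and adjusted p-values of at least 0.668.

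On the class I side, Psmb9 (ENSMUSG00000096727), the subunit β1i, had 383, 414, 541 and 813 normalized counts in controls and 709, 990.0, 1326 and 755 on blockade, with replicate 4 the highest control and above 2 of the treated tumors. The log2 fold change was 0.83 (SE 0.27, adjusted p = 0.103). Psme2 (ENSMUSG00000079197), the β subunit of PA28, had 568, 513, 369 and 993 in controls and 906, 938, 1073 and 793 on blockade, a log2 fold change of 0.69 (SE 0.26, adjusted p = 0.153), and again replicate 4 lay among the treated tumors. Without replicate 4 both rose in limma, with 1.05 (adjusted p = 0.00864) for Psmb9 and 0.95 (adjusted p = 0.00374) for Psme2. They were the 2 of 20 class I side genes called there, where 9.45% of all genes were called higher. Such calls were thus about as frequent on the class I side as among all genes. Of the 75-base stretches at the end of Psme2 transcripts, 57.0% also occur in the copy Psme2b, so reads of both may be mixed. Without replicate 4, Psmb9 and Psme2 also lay higher in every treated tumor than in any control, as 14.3% of all genes did, and Ctss, H2-DMa and Ifi30 lay lower, as 10.7% did. Tap1, which shares its promoter with Psmb9, had 1477, 1632, 1686 and 1108 in controls and 1678, 2435, 2361 and 2031 on blockade, a log2 fold change of 0.53 (SE 0.18, adjusted p = 0.114). H2-K1 had 36434, 29149, 28324 and 14602 in controls and 30585, 52579.6, 26328 and 30239 on blockade, a log2 fold change of 0.39 (SE 0.34, adjusted p = 0.560), B2m had 38529, 49394, 56715 and 33102 in controls and 34308, 71428, 70619 and 58281 on blockade, a log2 fold change of 0.37 (SE 0.33, adjusted p = 0.561), and Nlrc5 had 0.39 (adjusted p = 0.374). The other 14 class I side genes had log2 fold changes of −0.43 to 1.89 and adjusted p-values of 0.155 to 0.859.

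The position of IL-38 KO + IgG replicate 4 differed between members. It lay within the range of the blockade tumors for 8 of 20 class I side genes, among them Psmb8, Psmb9, Psmb10 and Psme2, and for 6 of 12 class II side genes, among them Ctss, H2-DMa and Ifi30; the share was 56.9% over all genes tested. It lay below all blockade tumors for 11 class I side genes, including H2-K1, H2-D1, B2m, Tap1 and Nlrc5, and for Cd74, H2-Ab1, H2-DMb1 and H2-Oa, against 21.8% of all genes. The antibody and this difference between libraries were not separated by any further sample.

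Of the 50 other genes of the pathway found in the tables, 42 were tested on blockade and 0 passed the adjusted threshold, while 3 higher and 7 lower had an unadjusted p under 0.05, against 12.7% and 9% of all genes, so that the higher ones were no more frequent than among all genes. The 8 genes of other endosomal processing had a median of −0.92, with 7 lower. Among them, the proteases Ctsb (−1.24), Ctsd (−1.32), Ctsl (−0.96) and Lgmn (−0.89) and March1, a ubiquitin ligase that removes class II molecules from the surface (−1.12), had adjusted p-values of 0.0657 to 0.113. Without replicate 4 all 5 fell, with adjusted p-values of 4.64e-05 to 0.0363, and 3 genes of the pathway rose, of which Irf1, an activator of immunoproteasome genes under interferon-γ, had 0.85 (adjusted p = 0.00128) and 0.70 (0.0657) with all libraries. The other 2 were Jak2 (0.83) and the proteasome activator Psme3 (0.85), and the remaining gene that fell was the receptor chain Ifngr2 (−0.74). Without replicate 4, 9.45% of all genes were called higher and 4.85% lower, so the 3 that rose were no more frequent than among all genes. All 17 interferon-stimulated genes were higher on blockade (median 0.44), 7 of them at an unadjusted p under 0.05. They had been lower in the knockout, but both comparisons share the IL-38 KO + IgG tumors, so the opposite signs are not independent. In the other comparisons, 0 of the 41 to 43 tested genes of the pathway passed the adjusted threshold, with medians of 0.022 on neutralization and −0.012 in the knockout.

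Markers of myeloid cells moved with Ctss, H2-DMa and Ifi30. The 9 macrophage markers summed to 805 to 1109.8 CPM in the 5 libraries that stood apart and to 1599.9 to 3325 in the other 18, the 6 pan-leukocyte markers to 369.9 to 455 against 932 to 1937, and the 8 dendritic cell markers to 33.8 to 42.5 against 188 to 471. Of 7 tested dendritic cell markers, 3 were lower on blockade, so the summed level does not stand for each of them. In the same comparison, 8 of 9 macrophage markers (median −0.96) and 5 of 6 pan-leukocyte markers (median −1.48) were lower, and all 8 mammary epithelial markers were higher (median 0.24). None of the markers of these lists was at 0 throughout a group. Their part in the result was not tested.

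**Figure D3:**
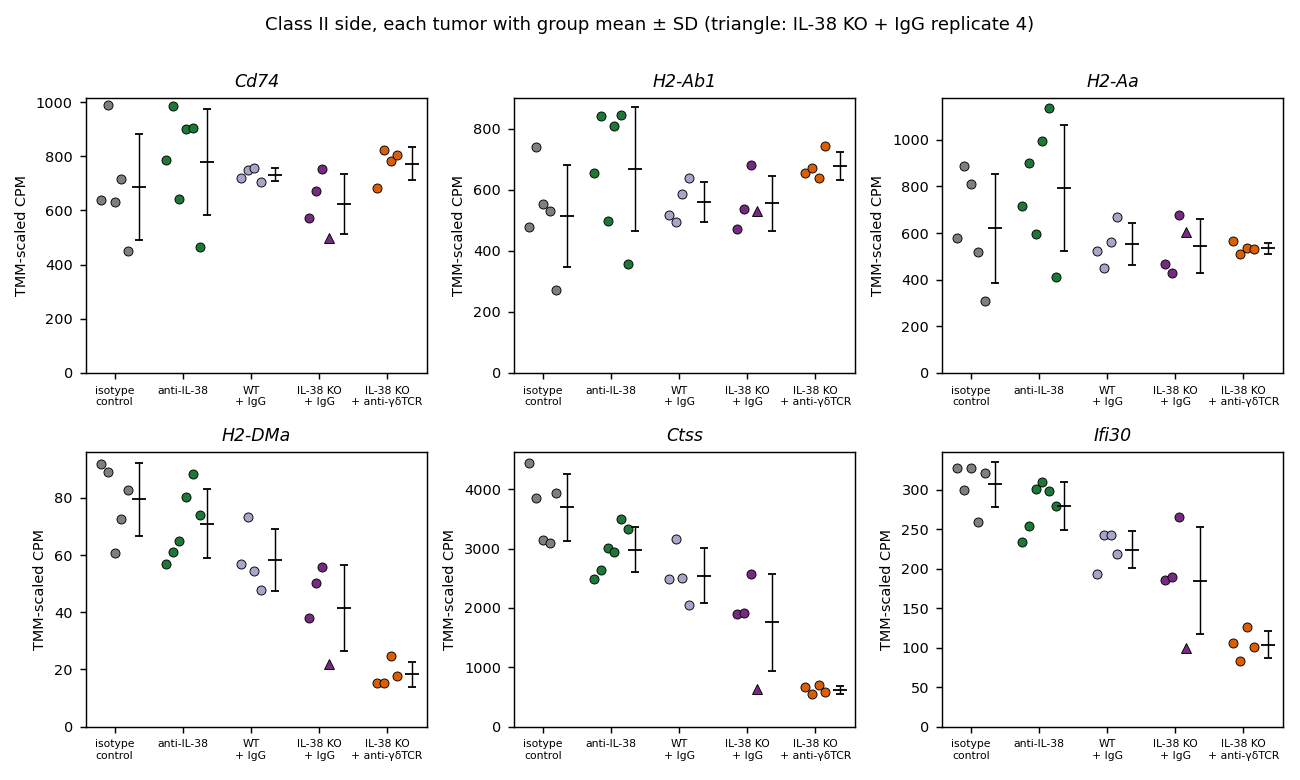
TMM-scaled CPM (y axes, from 0) of 6 class II side genes in each of the 23 tumors by group (x axes), with the group mean and SD at the right of each group; the triangle is IL-38 KO + IgG replicate 4. Cd74, H2-Ab1 and H2-Aa of the blockade tumors lie inside the range of the other tumors, while H2-DMa, Ctss and Ifi30 are lower in the 4 blockade tumors and in the triangle than in the other 18 tumors.

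Across the 5 groups, set on 1 scale of TMM-scaled CPM over 23 libraries, the class I molecules were lowest in the isotype controls. The mean log2 level of the 9 genes, with 1 added, was 5.80 ± 0.48 (SD, n = 5) in isotype control, 6.61 ± 0.58 (n = 6) in anti-IL-38, 6.60 ± 0.42 (n = 4) in WT + IgG, 6.47 ± 0.25 (n = 4) in IL-38 KO + IgG and 6.78 ± 0.39 (n = 4) in IL-38 KO + anti-γδTCR tumors. The other 4 groups differed from each other by less than the SD of the anti-IL-38 tumors. The experiments differed in antibody, in dose and in when treatment began, so the gap between isotype control and WT + IgG tumors cannot be told apart from these. The class II molecules had 8.98 ± 0.55, 9.35 ± 0.49, 9.05 ± 0.16, 8.95 ± 0.26 and 9.14 ± 0.078 in the same order, and all differences between groups were smaller than the SD of the isotype controls. The mean of Ctss, Ifi30 and H2-DMa had 8.80 ± 0.17, 8.60 ± 0.18, 8.32 ± 0.20, 7.80 ± 0.68 and 6.74 ± 0.22, a descending order in which the ranges of neighbouring groups overlapped, the last pair through IL-38 KO + IgG replicate 4 alone. These genes were grouped by their blockade values, so the low place of the blockade tumors is not a separate result. Leaving aside H2-Oa, which had 0 reads in at least 1 tumor, Tap2 was the most variable member, from 1.58 to 243 CPM over the 23 tumors, a 154-fold range, while Psmb10 and Psme1 varied by 1.80-fold and 1.87-fold.

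How the members varied from tumor to tumor was described over the 18 libraries that did not stand apart, after the mean of each group was taken out. The points share sequencing depth and scaling, and no test was made. H2-K1, H2-D1, H2-Q4, H2-Q7, H2-T22 and B2m moved together, with a median pairwise Pearson r of 0.85 (0.60 to 0.94). This set left out the class I molecules H2-Q6, H2-T23 and H2-M3. Over all 190 pairs of the class I side the median was 0.38 (−0.65 to 0.94), and 72 pairs were above 0.5. The proteasome and transporter genes Tap1, Psmb8, Psmb9, Psmb10, Psme1 and Psme2 were looser, at 0.29 (−0.34 to 0.77), with the highest value between the promoter partners Tap1 and Psmb9. Cd74, H2-Aa, H2-Ab1 and H2-Eb1 were tightly tied, at 0.94 (0.84 to 0.95). Ctss, Ifi30 and H2-DMa formed a set of their own, at 0.67 (0.52 to 0.87), and between them and the 4 class II molecules the median was 0.029 (−0.18 to 0.19). The mean of Ctss, Ifi30 and H2-DMa had r = 0.94 with the summed pan-leukocyte, 0.93 with the macrophage and 0.93 with the dendritic cell markers. The class II molecules had r = −0.20, 0.24 and −0.17 with these sums. The tie was thus not particular to 1 of these lists, and the sums were not split by marker. Of the 5 marker sums compared, the class II molecules had their highest r with B cell markers, at 0.70, although these summed to at most 5.23 CPM in the 18 libraries, followed by the mammary epithelial markers, at 0.59. The class I molecules had r = 0.56 with mammary epithelial and −0.65 with pan-leukocyte markers.

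**Figure D4:**
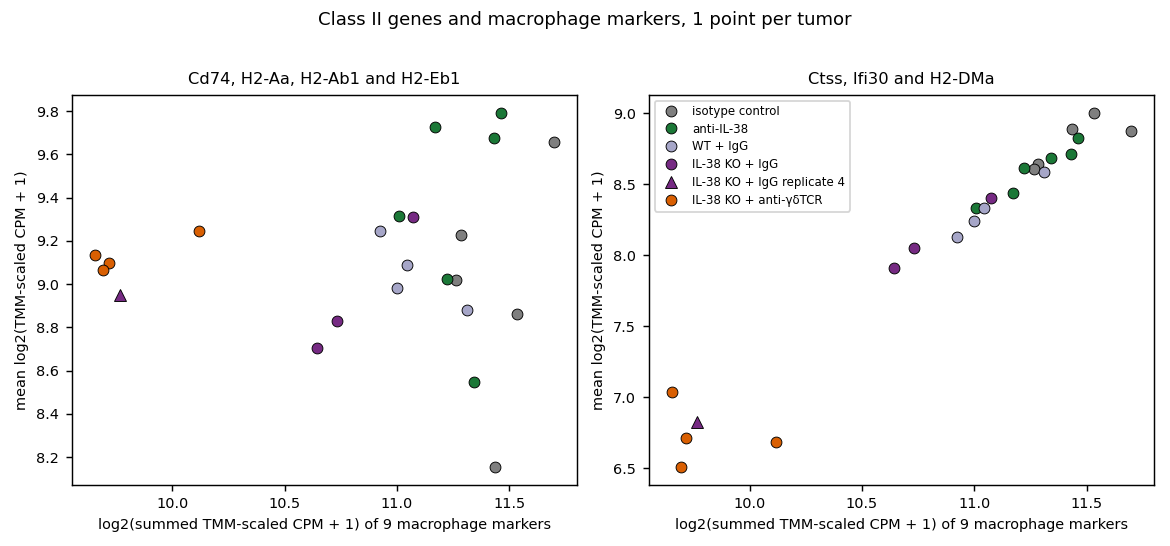
Mean log2 level of the 4 class II molecule genes (left) and of Ctss, Ifi30 and H2-DMa (right) against the summed level of 9 macrophage markers, with 1 point per tumor for 23 tumors colored by group; the triangle is IL-38 KO + IgG replicate 4. The right panel follows the markers from 6.51 to 7.04 in the 5 libraries that stood apart to 7.91 to 9.0 in the others, while in the left panel the 5 lie at 8.95 to 9.24, inside the range of the others.

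Levels of members not yet given by tumor are stated on this scale as mean ± SD, in CPM, with the group sizes as above. H2-D1, the other classical heavy chain of C57BL/6 mice, had 1141 ± 308 in isotype control, 1720.4 ± 504 in anti-IL-38, 1298 ± 307 in WT + IgG, 1264 ± 366 in IL-38 KO + IgG and 1385 ± 239 in IL-38 KO + anti-γδTCR tumors. Its highest mean was that of anti-IL-38 and its lowest that of isotype control, and the ranges of these groups overlapped. H2-T23, a non-classical gene with a narrow peptide repertoire, had 2.08 ± 1.04 in isotype control, 3.24 ± 1.39 in anti-IL-38, 2.37 ± 1.22 in WT + IgG, 3.45 ± 1.24 in IL-38 KO + IgG and 2.87 ± 1.01 in IL-38 KO + anti-γδTCR tumors. The H2-T23 mean was highest in IL-38 KO + IgG and lowest in isotype control, and the ranges of these groups overlapped. H2-M3, which presents peptides that begin with formylmethionine, had 3.67 ± 1.31 in isotype control, 5.44 ± 1.94 in anti-IL-38, 5.30 ± 0.618 in WT + IgG, 4.14 ± 0.923 in IL-38 KO + IgG and 3.56 ± 0.419 in IL-38 KO + anti-γδTCR tumors. Its highest mean was that of anti-IL-38 and its lowest that of IL-38 KO + anti-γδTCR, groups of different experiments whose difference was not tested. Tapasin, Tapbp, had 616 ± 208 in isotype control, 821 ± 169 in anti-IL-38, 516 ± 58.8 in WT + IgG, 438 ± 117 in IL-38 KO + IgG and 552 ± 40.2 in IL-38 KO + anti-γδTCR tumors. The Tapbp mean was highest in anti-IL-38 and lowest in IL-38 KO + IgG, groups of different experiments whose difference was not tested. The trimming peptidase Erap1 had 34.3 ± 5.96 in isotype control, 40.2 ± 8.5 in anti-IL-38, 37.5 ± 8.30 in WT + IgG, 48.8 ± 11.2 in IL-38 KO + IgG and 44.1 ± 5.88 in IL-38 KO + anti-γδTCR tumors. Its highest mean was that of IL-38 KO + IgG and its lowest that of isotype control, and the ranges of these groups overlapped.

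Among class II genes, the I-A α chain H2-Aa had 620.2 ± 233 in isotype control, 793 ± 268 in anti-IL-38, 551 ± 90.1 in WT + IgG, 545 ± 117 in IL-38 KO + IgG and 536 ± 23.5 in IL-38 KO + anti-γδTCR tumors. The H2-Aa mean was highest in anti-IL-38 and lowest in IL-38 KO + anti-γδTCR, and the ranges of these groups overlapped. H2-Eb1, the β chain of I-E, whose partner chain is not made in C57BL/6 mice, had 380.1 ± 182 in isotype control, 518 ± 173 in anti-IL-38, 356 ± 66.0 in WT + IgG, 338 ± 103 in IL-38 KO + IgG and 359 ± 54.6 in IL-38 KO + anti-γδTCR tumors. Its highest mean was that of anti-IL-38 and its lowest that of IL-38 KO + IgG, and the ranges of these groups overlapped. H2-DMb2, the other β chain gene of H2-DM, had 3.31 ± 0.549 in isotype control, 3.47 ± 2.07 in anti-IL-38, 3.53 ± 1.20 in WT + IgG, 3.73 ± 0.664 in IL-38 KO + IgG and 3.95 ± 1.13 in IL-38 KO + anti-γδTCR tumors. The H2-DMb2 mean was highest in IL-38 KO + anti-γδTCR and lowest in isotype control, and the ranges of these groups overlapped. These levels add no test to those above, and genes of low level such as H2-M3 rest on few reads.

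Exchange of proteasome subunits was examined through the ratio of reads of each immunoproteasome subunit to the constitutive subunit it replaces, within each tumor. The level of such a ratio depends on the transcript ends, and only its differences between tumors are read. On blockade, the log2 ratio of Psmb8 to Psmb5 was 3.76 to 3.95 in the 4 treated tumors and 2.72 to 3.32 in the 4 controls, so that the groups did not overlap, with replicate 4 the highest control at 3.32. Without replicate 4, the controls lay at 2.72 to 3.19. WT + IgG replicate 3, which is in neither group, was at 3.96, above every blockade tumor. The difference was 0.80 (exact permutation test, two-sided, p = 0.0286, which is the lowest value that 4 against 4 allow, and 0.257 after Benjamini-Hochberg adjustment over 9 such tests). The ratio of Psmb9 to Psmb6 differed by 0.73 (exact permutation test, p = 0.0857, adjusted 0.386) and that of Psmb10 to Psmb7 by 0.33 (p = 0.371, adjusted 0.669, exact). On neutralization the differences were −0.12, 0.61 and −0.017 for the 3 ratios, and in the knockout −0.14, 0.28 and −0.41, with adjusted p-values of 0.643 to 0.946 in the exact test. Psmb5 had the same sign as Psmb8 in both IL-38 comparisons, with a log2 fold change of 0.57 on neutralization and of −0.45 in the knockout, beside 0.45 and −0.59 for Psmb8.

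**Figure D5:**
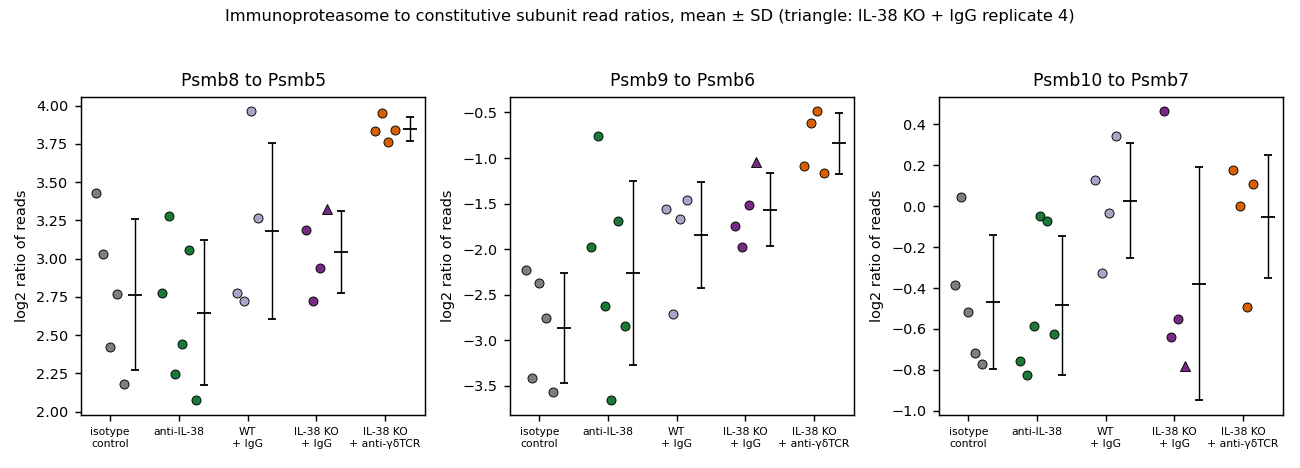
Log2 ratio of the reads of each immunoproteasome subunit to those of its constitutive counterpart (y axes) in each of the 23 tumors by group (x axes), with the group mean and SD at the right of each group; the triangle is IL-38 KO + IgG replicate 4. Psmb8 to Psmb5 lies at 3.76 to 3.95 in the blockade tumors and at 2.72 to 3.32 in the IL-38 KO + IgG tumors, and WT + IgG replicate 3 lies at 3.96.

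Whether the transactivators went with their targets was asked across the 19 tumors of the common table, in 6 relations adjusted together. Nlrc5 and B2m had Pearson's r = 0.67 (permutation p = 0.00186, adjusted 0.0112) and rho = 0.59 (permutation p = 0.00834, adjusted 0.050). Within the neutralization experiment (n = 11) r was 0.58 and within the comparison of genotypes (n = 8) 0.79, and for deviations from the group means it was 0.71. Without WT + IgG replicate 3 and anti-IL-38 replicate 4, the tumors farthest from the median of Nlrc5, r was 0.50 (permutation p = 0.0398, adjusted 0.239). The relation thus did not pass the adjusted threshold over the remaining 17 tumors, which span a narrower range of Nlrc5. Nlrc5 with H2-K1 had r = 0.48 (permutation p = 0.0357, adjusted 0.0714) and rho = 0.38 (permutation p = 0.106, adjusted 0.262), and with Tap1 r = 0.52 (permutation p = 0.0215, adjusted 0.0645) and rho = 0.36 (permutation p = 0.131, adjusted 0.262). Without the same tumors, r was 0.33 and 0.27; within the neutralization experiment r was 0.23 and 0.46 and within the comparison of genotypes 0.66 and 0.66.

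No relation of Ciita with the class II genes passed the adjusted threshold. With H2-Ab1 it had r = 0.049 (permutation p = 0.846, adjusted 0.946) and rho = 0.011 (permutation p = 0.968, adjusted 0.968), with Cd74 r = −0.017 (permutation p = 0.946, adjusted 0.946) and rho = 0.084 (permutation p = 0.732, adjusted 0.879) and with H2-DMa r = −0.14 (permutation p = 0.560, adjusted 0.841) and rho = −0.088 (permutation p = 0.723, adjusted 0.879). Within the neutralization experiment r was 0.013, −0.0080 and 0.29, and within the comparison of genotypes 0.39, 0.21 and 0.16. Without WT + IgG replicate 2 and IL-38 KO + IgG replicate 3, the tumors farthest from the median of Ciita, r was 0.016, −0.12 and −0.21. For deviations from the group means, Ciita with H2-DMa had rho = 0.47 (permutation p = 0.0450, adjusted 0.0901). IL-38 KO + IgG replicate 4, which stood apart, was among the 19 tumors and was not left out on its own. Ciita had 37.8 to 153 normalized counts in these tumors, so its level was measured with few reads.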

How the data were processed

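RNA of 23 PyMT tumors was sequenced with a 3′ mRNA kit (QuantSeq FWD). The deposited values are gene counts that the authors divided by 1 size factor per library, a normalized signal, in 2 tables of 19 and 8 libraries that were normalized separately and share the 4 IL-38 KO + IgG libraries. The submitters' processing notes list STAR, HTSeq, DESeq2 and GRCm39, without versions. Every value came out as whole reads after division by the step of each library (tolerance 0.0001%). For WT + IgG replicate 1 that step was 0.9959, close to 1 but not equal to it. Identifiers were matched to GENCODE M21 symbols (47224 of 47643 had one), and promoter sequences were taken from RefSeq on GRCm38.p6.

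Neutralization, genotype, their pooled effect and their difference were tested on the table of 19 libraries, and blockade on the table of 8, with limma 3.58.1 (R 4.3.3, trended variance, two-sided) on log2 of the normalized count plus 1, for genes with a mean of at least 5. P-values were adjusted by Benjamini-Hochberg over all genes at a threshold of 0.05. Recovered reads were tested with edgeR 4.0.16 and DESeq2 1.42.0. Other alternatives were pseudocounts of 0.5 and 5, other filters, TMM and quantile scaling, a replicate block, the experiment as a term in the pooled comparison and leaving out each library. Ratios and correlations were tested by permutation (scipy 1.17.1), exact for groups under 10 and otherwise with 100000 resamples. The scripts were tested on simulated data. The labels do not say that each sample is a separate mouse, so p-values measure the spread between samples.

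Pairs of samples within a group differed by more than sampling noise (chi-square per degree of freedom 15.9 to 125), so none was the same library sequenced again. The check cannot tell a second library or a second sample of 1 mouse. The deposited name of IL-38 KO + anti-γδTCR replicate 3 holds the letters rep, whose meaning is not given. The members, gene lists and marker lists were chosen with earlier results of these data known. Genes named in the text were the transactivators, H2-K1, B2m, H2-Ab1 and Cd74, and the 3 members of each side with the smallest p in each comparison, and others were chosen after their values were seen. WT tumors with anti-γδTCR were not analysed here.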

Additional observations from a re-analysis of the deposited data

Results flagged for a closer look

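Of 160 combinations of a member and a group, 6 had a tumor standing far from the rest of its group by Dixon's test at the 95% level, where chance at 1 in 20 would give 8. On the class I side, H2-M3 was at 6.23 TMM-scaled CPM (reads scaled to the library size) in WT + IgG replicate 3 against 4.96 to 5.04 in the other tumors of the group. Erap1 was at 23.8 in isotype control replicate 2 against 35.5 to 38.2. Psmb10, which was lower in all IL-38 KO + IgG tumors than in WT tumors, was at 54.0 in IL-38 KO + IgG replicate 2 against 62.3 to 63.0 in the others. Psme1 was at 209 in IL-38 KO + anti-γδTCR replicate 3 against 160.5 to 164, and Psme2 was at 45.6 in anti-IL-38 replicate 6 against 65.8 to 77.5. On the class II side, H2-Ob was at 0.593 in WT + IgG replicate 2 against 1.41 to 1.59. The causes were not tested.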

How the results depend on the processing

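All recomputed median fold changes of the class I side kept their sign. The class II median turned to −0.073 under quantile scaling and −0.017 without IL-38 KO + IgG replicate 1 on blockade, and to −0.010 with a minimum mean of 20 in the pooled comparison. In limma with all libraries, 0 members were called in any comparison. DESeq2 called 2 class I genes on neutralization, 2 in the knockout (1 with IL-38 KO + IgG replicate 4 left out) and 2 for the difference between antibody and knockout, and 2 class II genes on blockade. In the knockout without that library, DESeq2 called 485 of all 16225 genes. Leaving out 1 library gave 0 to 2 called class I and 0 to 3 called class II genes on blockade, the highest without IL-38 KO + IgG replicate 4. With it left out, edgeR called 2 and 3 and DESeq2 3 and 3, fits that were added after seeing the data. Calls were frequent in these fits, with 2379 of all 16480 genes in edgeR and 2873 in DESeq2. Signs near 0 turned. Over the fits without a single library, H2-K1 in the knockout ranged from −0.29 to 0.19 (above 0 without WT + IgG replicate 3 or IL-38 KO + IgG replicate 4, with edgeR 0.13 and DESeq2 0.14 in the latter case), H2-Ab1 from −0.13 to 0.050 and Ciita from −0.13 to 0.49. In the pooled comparison, B2m ranged from −0.087 to 0.066 and Cd74 from −0.079 to 0.062, and they were at 0.0069 and 0.010 in edgeR and 0.0088 and 0.011 in DESeq2. With the replicate number as a block, B2m was at 0.026 and Cd74 at 0.058. Equal numbers did not deviate together (13 correlations of −0.17 to 0.075), so they do not pair the samples, and the block changed no call of a member; over all genes it gave 1 call on neutralization, where limma had 0, and 0 in the knockout, where limma had 1. In the same fits, the log2 ratio of Psmb8 to Psmb5 ranged from −0.27 to 0.046 on neutralization and from −0.29 to 0.12 in the knockout, that of Psmb10 to Psmb7 from −0.10 to 0.11 on neutralization and that of Psmb9 to Psmb6 from −0.0055 to 0.42 in the knockout. For deviations from group means, Nlrc5 correlated with H2-K1 at 0.52 and Tap1 at 0.58 (adjusted permutation p = 0.0438 and 0.0304). Nlrc5 with B2m missed the threshold at 0.58 on neutralization alone, 0.79 in the genotypes alone and 0.50 without the 2 farthest tumors. Ciita with Cd74 turned to 0.21 in the genotypes alone and 0.061 for deviations, and with H2-DMa to 0.29 on neutralization alone, 0.16 in the genotypes alone and 0.32 for deviations. The causes were not tested. Depth limits H2-Oa, H2-Ob, H2-T23, H2-M3 and H2-DMb2, which had few reads, and 3′ ends shared with copies limit H2-Q6, H2-T22 and Psme2.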
